A study of Mus musculus with 28 samples.

Results

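The genes described here are 40 markers of the brain's blood vessels: 33 genes of endothelial cells, which line the vessel wall, and 7 of mural cells, the pericytes and smooth muscle cells that surround it. They were chosen as a list of symbols, and the level of a gene is the sum of the values of its transcripts. All 40 symbols were among the 23309 gene symbols of the series, and all 40 were among the 12760 genes tested, those with a mean FPKM of at least 1. FPKM are fragment numbers normalized to transcript length and to the mapped fragments of the library. Levels are given as scaled FPKM, which are FPKM divided by a factor that brings the libraries to a common median ratio.

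The RNA came from the striatum of 28 C57BL/6J mice, an inbred strain, 12 on placebo and 16 on haloperidol, a dopamine D2 receptor blocker used as an antipsychotic. The title of the series calls the treatment chronic. The libraries carry a batch label: batch 1 held 8 haloperidol and 8 placebo mice, and batch 2 held 8 haloperidol and 4 placebo mice. The sources used here give neither age, sex, dose and duration nor what the batch label stands for. A library is called by its treatment and the number of its mouse, written as the replicate.

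Brain endothelial cells form the blood-brain barrier. Tight junctions seal the gaps between them, carriers bring glucose, amino acids, lactate and lipids across the cell, and efflux pumps return many drugs to the blood. Receptors of the VEGF, angiopoietin and Notch pathways keep the cells in their vascular state. Pericytes and smooth muscle cells support the barrier and set the vessel's calibre. Vascular cells are a small part of striatal tissue, so their RNA is measured here in whole tissue. In such bulk samples fewer cells of a type and less RNA per cell cannot be told apart.

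The sequence just before the gene start is shown for 5 of the genes on which the results below turn: Flt1, the receptor with the steepest fall among the receptors along the FPKM sum of the libraries, Notch4 and Pglyrp1, which differed between batches, and the smooth muscle genes Acta2 and Myl9, which had the highest haloperidol fold changes together with Tagln. Each run is the 250 bases before the start in RefSeq, build GRCm38.p6, 5′ to 3′ on the gene's strand. Capitals mark AGGAAG or its reverse complement CTTCCT in Flt1 (chr5:147726012-147726261, minus strand), Notch4 (chr17:34564045-34564294, plus strand) and Pglyrp1 (chr7:18884440-18884689, plus strand). AGGAAG is a form of the motif bound by ETS-family factors, and other forms were not searched for. In Acta2 (chr19:34255374-34255623, minus strand) and Myl9 (chr2:156775214-156775463, plus strand) they mark the CArG box, the element bound by serum response factor, with up to 1 mismatch.
Flt1: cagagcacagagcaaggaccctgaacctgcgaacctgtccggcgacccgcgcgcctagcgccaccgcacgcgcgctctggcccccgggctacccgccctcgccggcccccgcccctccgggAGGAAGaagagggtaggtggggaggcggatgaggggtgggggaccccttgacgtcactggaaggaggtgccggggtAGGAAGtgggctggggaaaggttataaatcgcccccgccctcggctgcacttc
Notch4: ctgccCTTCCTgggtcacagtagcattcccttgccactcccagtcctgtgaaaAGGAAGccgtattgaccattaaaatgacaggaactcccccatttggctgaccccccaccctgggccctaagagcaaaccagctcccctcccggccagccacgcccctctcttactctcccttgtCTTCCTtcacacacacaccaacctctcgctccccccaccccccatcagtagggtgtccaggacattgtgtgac
Pglyrp1: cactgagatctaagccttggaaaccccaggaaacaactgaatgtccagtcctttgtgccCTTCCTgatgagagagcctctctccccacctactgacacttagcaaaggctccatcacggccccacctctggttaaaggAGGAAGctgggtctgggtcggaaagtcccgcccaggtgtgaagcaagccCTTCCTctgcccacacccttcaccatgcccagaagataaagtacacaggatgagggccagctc
Acta2: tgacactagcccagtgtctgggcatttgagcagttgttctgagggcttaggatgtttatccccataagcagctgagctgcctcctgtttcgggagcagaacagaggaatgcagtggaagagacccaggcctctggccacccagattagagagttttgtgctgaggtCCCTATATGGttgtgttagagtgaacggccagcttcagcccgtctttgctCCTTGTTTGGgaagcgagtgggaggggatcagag
Myl9: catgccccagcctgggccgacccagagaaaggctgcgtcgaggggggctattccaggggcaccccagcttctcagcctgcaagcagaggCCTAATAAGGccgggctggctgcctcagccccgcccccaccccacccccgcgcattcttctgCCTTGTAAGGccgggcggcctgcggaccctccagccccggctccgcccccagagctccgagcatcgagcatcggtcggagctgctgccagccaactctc
The first bases of the matches lie 129 and 53 bases before the start in Flt1, 245, 197 and 73 in Notch4, 191, 112 and 63 in Pglyrp1, 84 and 34 in Acta2, and 161 and 99 in Myl9.

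The table of promoters held 27 of the 40 genes, with 33 starts. On either strand, AGGAAG was present in 16 of 28 endothelial promoters (13 of 22 genes) and in 0 of 5 mural promoters, against 29.5% of all 32851 promoters of this length. The CArG box with up to 1 mismatch was present in 2 of 5 mural promoters, those of Acta2 and Myl9, and in 5 of 28 endothelial promoters, against 8.59% of all promoters. Without a mismatch it was present only in Myl9 among the 33 promoters, against 1.47% of all. The motifs do not overlap each other in the promoters shown. A match is a description of these letters and not a binding site.

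Every gene was above 0 in all 28 libraries, which in whole tissue says nothing of which cells the RNA came from, since Slc3a2, Slc7a5, Slc2a1 and others are also made by other brain cells. Levels spanned a wide range. Vtn, vitronectin, which pericytes make in brain, was highest at 50.9 ± 15.5 scaled FPKM (SD, n = 28), and the VEGF receptor gene Kdr was lowest at 1.16 ± 0.667. Above 20 were 11 genes, and 6 lay under 2 (Tek, Sox17, Vwf, Notch4, Foxq1 and Kdr), near the minimum that was tested. Among the transporters the level ran from 43.3 ± 6.34 for Slc3a2, the heavy chain of amino acid carriers, and 36.3 ± 5.47 for Slc2a1, the glucose carrier of the barrier, down to 4.05 ± 1.09 for the efflux pump Abcb1a. In the order of levels Slc3a2, Ly6c1, Ly6a and Slc2a1 followed Vtn, each lower by less than the SD of Vtn. Among junction genes Cldn5, the main tight junction claudin of the barrier, measured 30.9 ± 12.0, and Ocln, occludin, 2.04 ± 0.852.

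**Figure D1:**
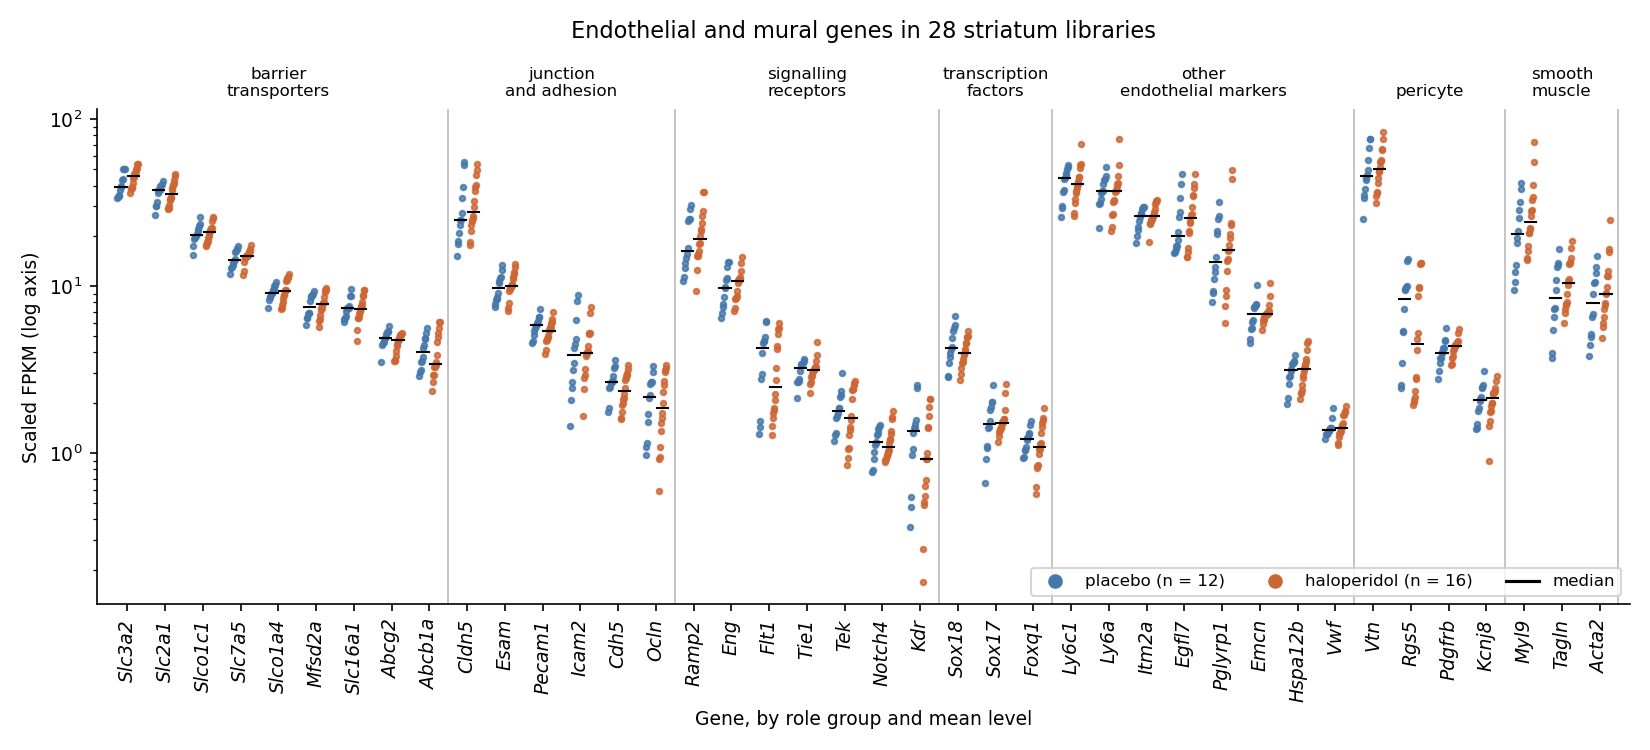
Scaled FPKM (log axis) of the 40 genes in each of 28 libraries, by role group and mean level; points are libraries, blue for placebo (n = 12) and orange for haloperidol (n = 16), and black bars are medians. The groups overlap for every gene, and the spread between libraries is widest for Rgs5, Kdr, Pglyrp1 and Myl9.

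The spread between mice was itself uneven. The SD was 10.95% of the mean for the amino acid carrier Slc7a5 and 13.2% for the thyroid hormone and organic anion carrier Slco1c1, but 63.4% for the pericyte gene Rgs5, 57.6% for Kdr, 57.2% for Pglyrp1 and 53.4% for Myl9. Of the 9 transporters, 8 had an SD under 17% of the mean. The highest library was 15.2 times the lowest for Kdr and 1.53 times for Slc7a5. Apart from Abcb1a at 26.97%, the transporter levels varied little from mouse to mouse, while those of several receptor, junction and mural genes varied several-fold.

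Haloperidol changed none of the 40 genes past the threshold. With batch in the model, limma called 0 of 40 at an adjusted p under 0.05, against 1 of all 12760 genes (0.00784%). At an unadjusted p under 0.05 there were 3 of 40 (Slc3a2, Tagln and Myl9), against 6.29% of all genes, and 0 to 5 when 1 library was left out. This count also moved with the model. It was 9 with the RNA integrity number (RIN) as a term, against 2836 of all 12760 genes. With array weights it was 7. The count over all genes was not taken in that fit or with 1 library left out. In batch 2 alone it was 6, against 2150 of all genes, and in batch 1 alone 0, against 96. The log2 fold changes ran from -0.52 (Rgs5) to 0.47 (Myl9) with a median of 0.06, against 0.0041 over all genes, and 32 of 40 lay between -0.2 and 0.2. Standard errors ran from 0.06 to 0.33 with a median of 0.10. Of the 40, 27 were above 0 and 13 below, against 50.9% above 0 of all genes.

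**Figure D2:**
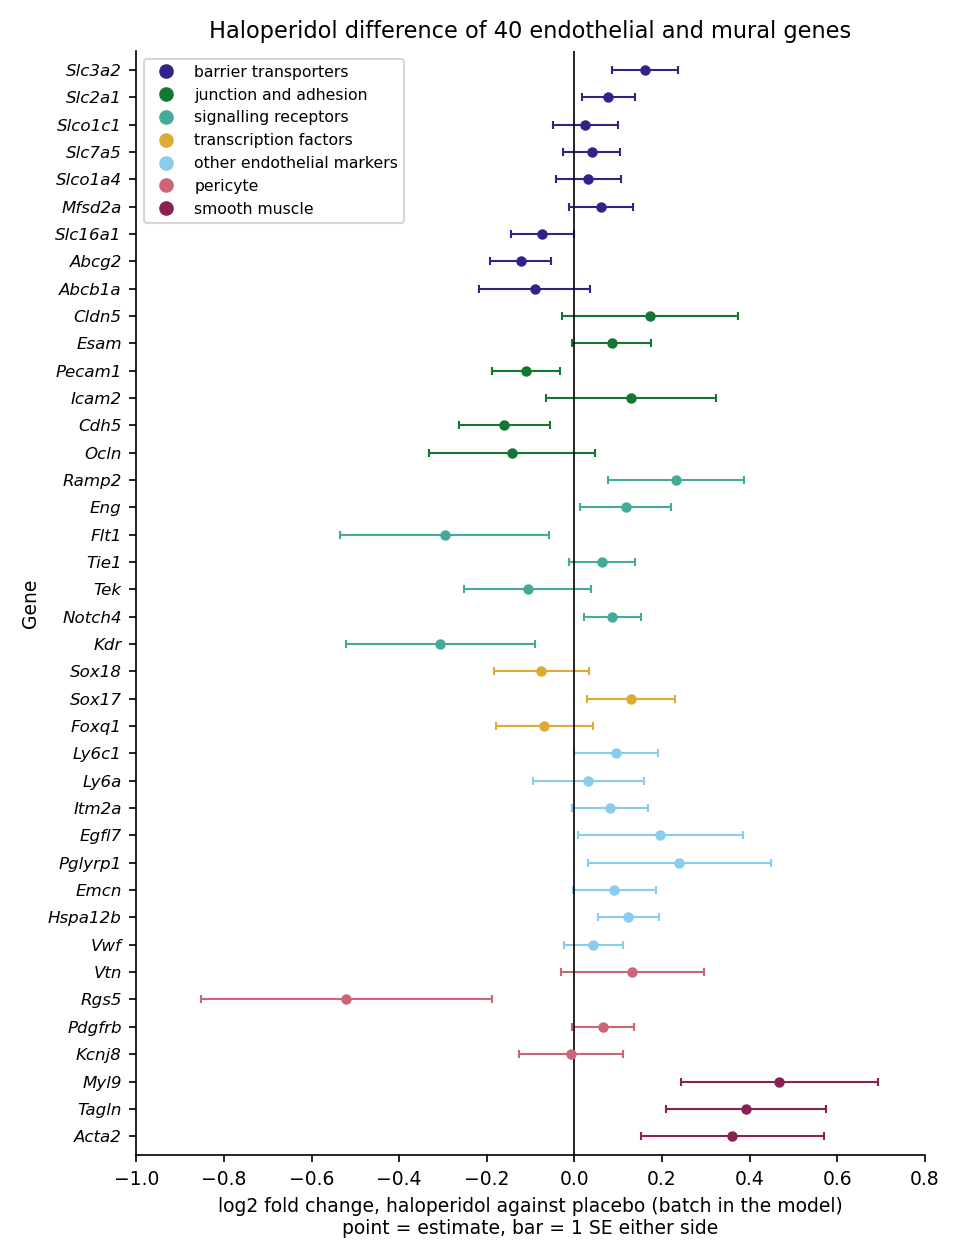
Log2 fold change of each of the 40 genes, haloperidol (n = 16) against placebo (n = 12), with batch in the model; points are estimates, bars 1 SE either side, and colours the role groups. The 3 smooth muscle genes lie at 0.36 to 0.47 and Rgs5 at -0.52, and 0 of the 40 passed the threshold.

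The smooth muscle genes had the highest fold changes. Myl9, a regulatory light chain of myosin, ran from 9.46 to 41.5 scaled FPKM (median 20.4) in 12 placebo libraries and from 14.4 to 73.0 (median 24.1) in 16 haloperidol libraries. The groups overlapped over most of their range, and the single library at 73.0 was haloperidol replicate 19 of batch 1. The log2 fold change was 0.47 (SE 0.22, unadjusted p = 0.0460, limma adjusted p = 0.565). Of the 16 haloperidol libraries 8 exceeded the placebo mean. Tagln, the actin-binding protein transgelin, measured 11.01 ± 3.83 (SD, n = 16) against 9.29 ± 4.22 (SD, n = 12) (log2 fold change 0.39 with SE 0.18, limma adjusted p = 0.565). Acta2, smooth muscle actin, measured 10.4 ± 5.17 against 8.48 ± 3.73 (log2 fold change 0.36 with SE 0.21, limma adjusted p = 0.565). Of these genes, 9 of 16 haloperidol libraries lay above the placebo mean for Tagln and 9 of 16 for Acta2. The log2 fold changes in batch 1 and batch 2 were 0.42 and 0.54 for Myl9, 0.33 and 0.48 for Tagln, and 0.27 and 0.50 for Acta2. With log2 of the FPKM sum of the library as a term, a measure described below, they were 0.20, 0.20 and 0.13. Tagln shares 95 exon bases with Pcsk7 on the other strand, and the sources used here do not say if strand entered the quantification, so its level is less certain.

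Pericyte genes gave no common direction. Rgs5, a regulator of G protein signalling that marks pericytes, ran from 2.44 to 14.6 scaled FPKM (median 8.42) in placebo and from 1.94 to 13.8 (median 4.48) in haloperidol libraries. Both groups reached from under 3 to over 13, so they overlapped almost fully. Its log2 fold change was -0.52 (SE 0.33, limma adjusted p = 0.565), and it was -0.11 with log2 of the FPKM sum as a term. Pdgfrb, the receptor that recruits pericytes, measured 4.33 ± 0.579 (SD, n = 16) against 4.02 ± 0.765 (SD, n = 12) (log2 fold change 0.07 with SE 0.07, limma adjusted p = 0.614). Vtn had a log2 fold change of 0.13 (-0.07 in the fit that holds the FPKM sum), and Kcnj8, a potassium channel subunit of pericytes, of -0.01.

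Among the 9 barrier transporters the log2 fold changes lay between -0.12 and 0.16. Slc3a2 ran from 33.7 to 50.4 scaled FPKM (median 39.4) in placebo and from 36.2 to 54.1 (median 45.8) in haloperidol libraries, and 11 of 16 haloperidol libraries lay above the placebo mean. This gave a log2 fold change of 0.16 with an SE of 0.07 (unadjusted p = 0.0394, limma adjusted p = 0.565). Slc7a5, the light chain that pairs with Slc3a2 as the large neutral amino acid carrier, had a log2 fold change of 0.04 with an SE of 0.06 (limma adjusted p = 0.724). The efflux pump Abcg2 measured 4.52 ± 0.610 against 4.90 ± 0.586 (log2 fold change -0.12 with SE 0.07, limma adjusted p = 0.565), with 11 of 16 haloperidol libraries below the placebo mean. Abcb1a, which encodes a P-glycoprotein, had a log2 fold change of -0.09 (0.05 in the fit that holds the FPKM sum), Slc2a1 of 0.08, the lactate carrier Slc16a1 of -0.07, the lipid transporter Mfsd2a of 0.06, and the organic anion carriers Slco1a4 and Slco1c1 of 0.03 and 0.02. The reads of Abcb1a could in part come from its close copy Abcb1b, since the sources used here do not say how shared reads were split.

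Junction and adhesion genes lay between -0.16 and 0.17. Cdh5, the cadherin of endothelial adherens junctions, measured 2.43 ± 0.579 (SD, n = 16) against 2.70 ± 0.548 (SD, n = 12) (log2 fold change -0.16 with SE 0.10, limma adjusted p = 0.565). Pecam1, an adhesion receptor at endothelial contacts, measured 5.35 ± 0.813 against 5.79 ± 0.794 (log2 fold change -0.11 with SE 0.08, limma adjusted p = 0.565), with 12 of 16 haloperidol libraries below the placebo mean. Cldn5 had a log2 fold change of 0.17 with an SE of 0.20, Ocln of -0.14 with an SE of 0.19, Icam2 of 0.13 and Esam of 0.09. For Cldn5 and Ocln the SE was larger than the difference. With log2 of the FPKM sum as a term the signs of these 4 genes turned, to -0.08, 0.07, -0.09 and -0.01.

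Receptor genes of vascular signalling lay between -0.31 and 0.23. Kdr (VEGF receptor 2) ran from 0.361 to 2.57 scaled FPKM (median 1.36) in placebo and from 0.169 to 2.11 (median 0.922) in haloperidol libraries (log2 fold change -0.31 with SE 0.22, limma adjusted p = 0.565). Flt1 (VEGF receptor 1) ran from 1.29 to 6.21 (median 4.28) and from 1.28 to 6.02 (median 2.502) (log2 fold change -0.30 with SE 0.24, limma adjusted p = 0.565). The groups overlapped for both genes, over nearly the same range for Flt1, while for Kdr the lowest haloperidol value lay below the lowest placebo value. With log2 of the FPKM sum as a term the log2 fold changes were -0.05 for Kdr and 0.0037 for Flt1. Ramp2, the partner of the adrenomedullin receptor, measured 20.9 ± 7.86 against 19.2 ± 7.23 (log2 fold change 0.23 with SE 0.15, limma adjusted p = 0.565). The angiopoietin receptor Tek, its relative Tie1, Notch4 and the TGF-beta co-receptor Eng had log2 fold changes of -0.11 (0.05 with that term for Tek), 0.06, 0.09 and 0.12. Eng shares 61 exon bases with Fpgs on the other strand.

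The endothelial transcription factor Sox17 had a log2 fold change of 0.13 with an SE of 0.10 (limma adjusted p = 0.565), Sox18 of -0.08 (SE 0.11, limma adjusted p = 0.686) and Foxq1 of -0.07. All 8 other endothelial markers had log2 fold changes above 0, between 0.03 (Ly6a) and 0.24 (Pglyrp1). With log2 of the FPKM sum as a term 5 of the 8 were above 0, with a median of 0.02 in place of 0.09, and Pglyrp1, Ly6a and Egfl7 had -0.0094, -0.09 and -0.04. Hspa12b, a heat shock protein relative of endothelial cells, measured 3.18 ± 0.793 (SD, n = 16) against 3.03 ± 0.580 (SD, n = 12) (log2 fold change 0.12 with SE 0.07, limma adjusted p = 0.565). Pglyrp1, a peptidoglycan recognition protein, measured 18.95 ± 12.02 against 16.9 ± 7.93 (log2 fold change 0.24 with SE 0.21, limma adjusted p = 0.568). Egfl7, a secreted endothelial matrix protein, had 0.20, Ly6c1 0.10, Emcn 0.09, Itm2a 0.08 and Vwf 0.04.

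Whether the haloperidol difference itself differed between batches was tested with a treatment-by-batch term. Limma called 0 of 40 genes and 0 of all genes (0%), and at an unadjusted p under 0.05 there were 0 of 40, against 1.61% of all genes. The sign of the log2 fold change was the same in both batches for 30 of 40 genes. Batch 2 had the wider differences for several genes: Rgs5 had -0.24 in batch 1 and -0.94 in batch 2, Flt1 -0.07 and -0.63, and Cldn5 -0.01 and 0.45, each with an interaction adjusted p of 0.863. Within batch 2 the libraries also differed between treatments in relative sequencing depth, by 0.756 on the log2 scale (exact permutation p = 0.0162, 2-sided). Log2 of the FPKM sum was higher in haloperidol by 0.161 in batch 2 (exact permutation p = 0.129, 2-sided). In batch 1 it was higher by 0.038 (exact permutation p = 0.702, 2-sided). The parts of depth and of the FPKM sum in these values were not tested.

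Between batches 5 of the 40 genes differed and all 5 were lower in batch 2: Hspa12b, Notch4, Slc2a1, Ly6c1 and Pglyrp1. Over all genes limma called 52 (0.408%), of which 37 (0.290%) were lower in batch 2. The batch log2 fold changes of the 40 genes had a median of -0.17, against -0.0026 over all genes, and 25 of 40 were below 0. The median was -0.14 with RIN and -0.08 with log2 of the FPKM sum as a term, and -0.0029 with libraries rescaled to a common FPKM sum, where that of all genes was 0.15. At an unadjusted p under 0.05 there were 18 of 40, against 26.7% of all genes. Markers of other cells had batch differences too, with 0 called: 7 of 7 cortical excitatory neuron genes were above 0 (median 0.40, or 0.34 with log2 of the FPKM sum as a term), and 7 of 9 microglia genes below 0 (median -0.28, or -0.07 with that term). Their part in the differences of the vascular genes was not tested.

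Hspa12b, on chromosome 2 from 130953148 to 130971719 of mm9 (plus strand, 13 exons), ran from 2.84 to 4.66 scaled FPKM (median 3.47) in the 16 libraries of batch 1 and from 1.97 to 3.30 (median 2.46) in the 12 of batch 2. Of the batch 2 libraries 9 lay below the lowest of batch 1, and 12 of 12 below the batch 1 mean. The log2 fold change was -0.46 (SE 0.07, limma adjusted p = 0.00109). Among placebo mice alone the means were 3.36 ± 0.309 (SD, n = 8) in batch 1 and 2.39 ± 0.414 (SD, n = 4) in batch 2, and among haloperidol mice 3.79 ± 0.593 (SD, n = 8) and 2.58 ± 0.402 (SD, n = 8).

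Notch4, the endothelial Notch receptor, on chromosome 17 from 34701240 to 34725488 (plus strand, 30 exons), ran from 0.978 to 1.80 scaled FPKM (median 1.31) in batch 1 and from 0.772 to 1.14 (median 0.943) in batch 2. The batches overlapped: 7 of 12 batch 2 libraries lay below the lowest of batch 1, and the highest of batch 2, at 1.14, exceeded placebo replicate 4 (1.12) and haloperidol replicate 19 (0.978) of batch 1. The log2 fold change was -0.35 (SE 0.06, limma adjusted p = 0.0102). Slc2a1, on chromosome 4 from 118781350 to 118809934 (plus strand, 10 exons), ran from 30.1 to 47.2 (median 39.996) and from 26.7 to 37.6 (median 31.3), and 12 of 12 batch 2 libraries lay below the batch 1 mean. Its log2 fold change was -0.32 (SE 0.06, limma adjusted p = 0.0113), and none of the other 8 transporters was called. The Slc2a1 call was lost without scaling (limma adjusted p = 0.0592), with quantile normalization (-0.25, limma adjusted p = 0.0966) and with a common FPKM sum (-0.16, limma adjusted p = 0.244). With a common FPKM sum Notch4 (-0.24, limma adjusted p = 0.173) and Hspa12b (-0.31, limma adjusted p = 0.139) were lost too.

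Ly6c1, a GPI-anchored surface protein of endothelial cells that some blood leukocytes also carry, on chromosome 15 from 74875445 to 74879267 (minus strand, 4 exons), ran from 30.1 to 70.5 scaled FPKM (median 47.1) in batch 1 and from 26.1 to 42.8 (median 34.6) in batch 2. Its log2 fold change was -0.51 (SE 0.10, limma adjusted p = 0.0115). Reads of the closely related Ly6 genes next to it could be shared with it, so its level is uncertain. Pglyrp1, also made by neutrophils, on chromosome 7 from 19470039 to 19475787 (plus strand, 3 exons), ran from 10.97 to 49.2 (median 20.98) and from 5.98 to 19.5 (median 9.39). Its log2 fold change was -0.97 (SE 0.21, limma adjusted p = 0.0328), and 7 of 12 batch 2 libraries lay below the lowest of batch 1. Of the blood list, 6 of 11 genes were tested and 0 were called; all 6 had a batch log2 fold change below 0, with a median of -0.34 (0.13 with RIN as a term, where all 6 were above 0, and 0.07 with log2 of the FPKM sum, where 4 were), and their summed level ran from 79.3 to 293 scaled FPKM in batch 1 and from 67.4 to 203 in batch 2. The part of blood cells in the Ly6c1 and Pglyrp1 differences was not tested.

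**Figure D3:**
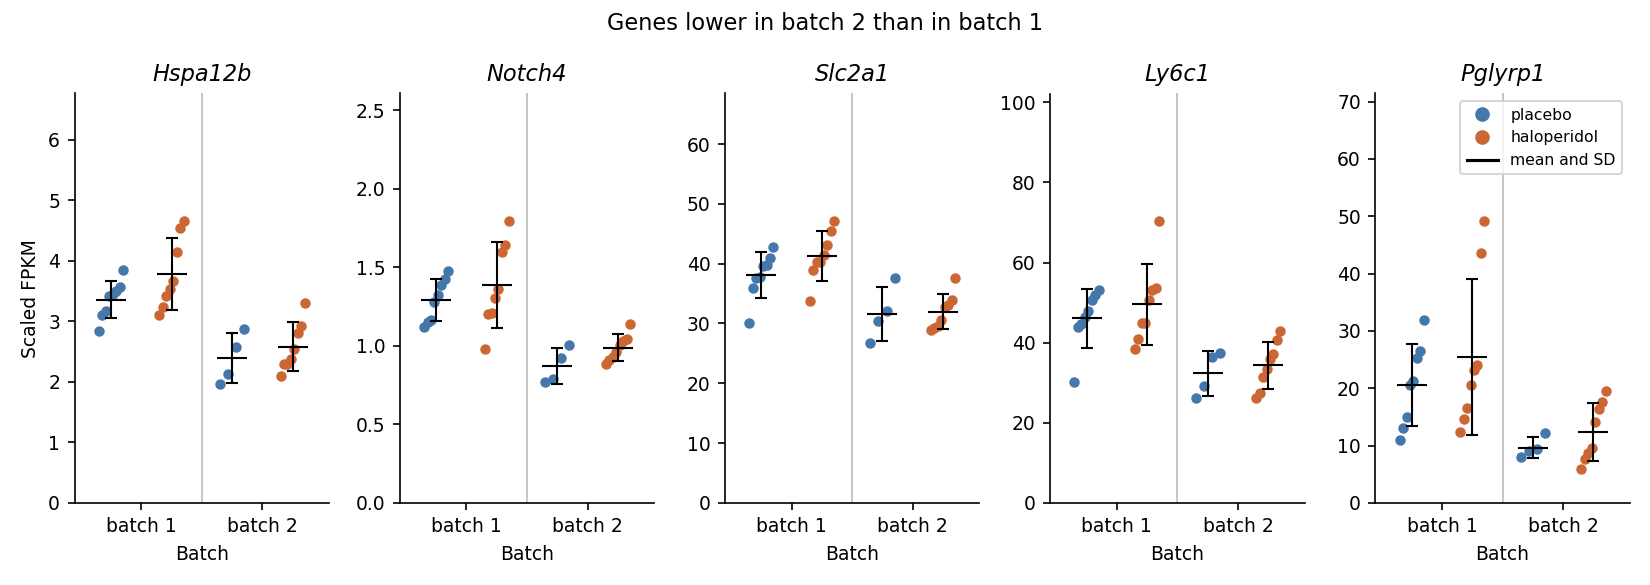
Scaled FPKM of the 5 genes called between batches, by batch and treatment; points are libraries (8 placebo and 8 haloperidol in batch 1, 4 and 8 in batch 2), and black marks are the mean and SD. Within both treatments the batch 2 values sit lower, with 9 of 12 below every batch 1 library for Hspa12b.

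Genes that came near the threshold were Ramp2, at 15.3 ± 4.25 (SD, n = 12) in batch 2 against 23.9 ± 7.37 in batch 1 (SD, n = 16; log2 fold change -0.65, limma adjusted p = 0.0542), and Slc16a1, at 8.26 ± 1.01 against 6.75 ± 0.937 (log2 fold change 0.29, limma adjusted p = 0.0696). Slc16a1 and Slc2a1 are both fuel carriers of the barrier, and their batch differences had opposite signs. In the other role groups the smallest p-values did not pass. Sox17 measured 1.28 ± 0.279 in batch 2 and 1.78 ± 0.425 in batch 1 (log2 fold change -0.38, limma adjusted p = 0.0821), and Sox18 3.83 ± 0.805 and 4.56 ± 1.017 (-0.21, limma adjusted p = 0.1999). Among junction genes Icam2 measured 3.23 ± 1.06 and 5.03 ± 2.02 (-0.55, limma adjusted p = 0.154), and Esam 9.20 ± 1.25 and 10.8 ± 1.97 (-0.22, limma adjusted p = 0.172). The pericyte genes Pdgfrb and Rgs5 had batch log2 fold changes above 0, of 0.23 (limma adjusted p = 0.116) and 0.50 (limma adjusted p = 0.269), and all 12 batch 2 libraries lay above the batch 1 mean for Pdgfrb. The Rgs5 difference turned to -0.39 with RIN and -0.13 with log2 of the FPKM sum as a term. The smooth muscle genes Tagln and Myl9 had -0.58 (limma adjusted p = 0.122) and -0.63 (limma adjusted p = 0.158).

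The batches also differed in RNA integrity. The RNA integrity number (RIN) averaged 8.33 ± 0.507 (SD, n = 12) in batch 2 and 7.75 ± 0.379 (SD, n = 16) in batch 1 (permutation p = 0.0023, 2-sided). With RIN as a term 1 of the 40 genes was called, Notch4 (log2 fold change -0.40, limma adjusted p = 0.0306), against 0.0470% of all genes. For the other called genes the log2 fold changes with RIN were -0.40 (Hspa12b), -0.34 (Slc2a1), -0.37 (Ly6c1, from -0.51) and -0.52 (Pglyrp1, from -0.97), with limma adjusted p-values of 0.0816, 0.0851, 0.314 and 0.687. With log2 of the FPKM sum as a term instead, 7 of the 40 genes were called, against 0.933% of all genes: the 5 above with Mfsd2a (-0.30, limma adjusted p = 0.0231) and Ramp2 (-0.36, limma adjusted p = 0.00204). With log2 of the choroid plexus gene Ttr as a term the same 5 genes were called. Neither treatment alone gave a call among the 40. The call of Pglyrp1 was lost in 13 of the 28 fits that left out 1 library, at adjusted p-values of 0.0506 to 0.0888: without haloperidol replicates 3, 7, 9, 19, 21, 25, 29 and 35 and without placebo replicates 10, 22, 26, 28 and 32. The other 4 were called in 28 of 28, and without haloperidol replicate 17 the count of called genes rose to 10.

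The levels of most of these genes varied with a measure of the library, the sum of all its FPKM. This sum ran from 380952 to 575171, a span of 0.594 on the log2 scale. On the log2 scale the haloperidol mean exceeded the placebo mean by 0.065 (permutation p = 0.375, 2-sided). That is less than the SDs between mice, of 0.186 on haloperidol and 0.196 on placebo. The difference of batch 2 from batch 1 was -0.120 (permutation p = 0.0988, 2-sided). The treatment differences inside each batch are given above. A slope on log2 of this sum was fitted with treatment and batch in the model, as the change in log2 level per unit of log2 FPKM sum. Of the 40 genes 32 had a slope past the threshold, 18 positive and 14 negative, against 82.0% of all genes, so the share is that of the transcriptome as a whole. Libraries were also rescaled to a common FPKM sum, which lowers or raises all slopes together. Then 34 of the 40 were called, against 10705 of all 12760 genes. Of the 34, 9 were positive and 25 negative, and 27 of the 32 called before kept their sign.

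Flt1 and Rgs5 were at the falling end. In haloperidol replicate 25, the library with the lowest FPKM sum, Flt1 measured 5.60 and Rgs5 13.7 scaled FPKM. In haloperidol replicate 3, with the highest sum, they measured 1.28 and 2.36. These libraries differ in batch and RIN as well: replicate 25 is of batch 2 with RIN 8.6, and replicate 3 of batch 1 with RIN 7.33. The slopes were -3.43 (SE 0.19, limma adjusted p = 7.83e-16) for Flt1 and -4.69 (SE 0.33, limma adjusted p = 1.02e-13) for Rgs5. Kdr had -2.92, Ocln -2.47, Tek -1.77, Abcb1a -1.60 and Cdh5 -1.21. These genes include receptors, junction proteins, an efflux pump and a pericyte gene, so the falling end was not 1 role group.

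Cldn5, Egfl7 and Myl9 were at the rising end. In the same 2 libraries Cldn5 measured 17.7 and 54.1 scaled FPKM, Egfl7 14.9 and 47.0, and Myl9 14.7 and 55.2. The slopes were 2.86 (SE 0.17, limma adjusted p = 1.90e-15) for Cldn5, 2.73 (SE 0.13, limma adjusted p = 3.92e-17) for Egfl7 and 3.07 (SE 0.26, limma adjusted p = 8.08e-12) for Myl9. Pglyrp1 had 2.86, Acta2 2.68, Icam2 2.56, Vtn 2.27, Tagln 2.18, Ramp2 2.13 and Kcnj8 1.35. Slc2a1 had a slope of 0.01 (SE 0.16, limma adjusted p = 0.944), Vwf of 0.11, Itm2a of -0.30 and Sox18 of 0.29, and none of these was called. Notch4 (-0.29) and Hspa12b (0.37) were not called either, so with this scaling 3 of the 5 genes that differed between batches had no called slope. With a common FPKM sum, which shifts all slopes together, the batch calls of these 3 genes were lost, as given above.

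**Figure D4:**
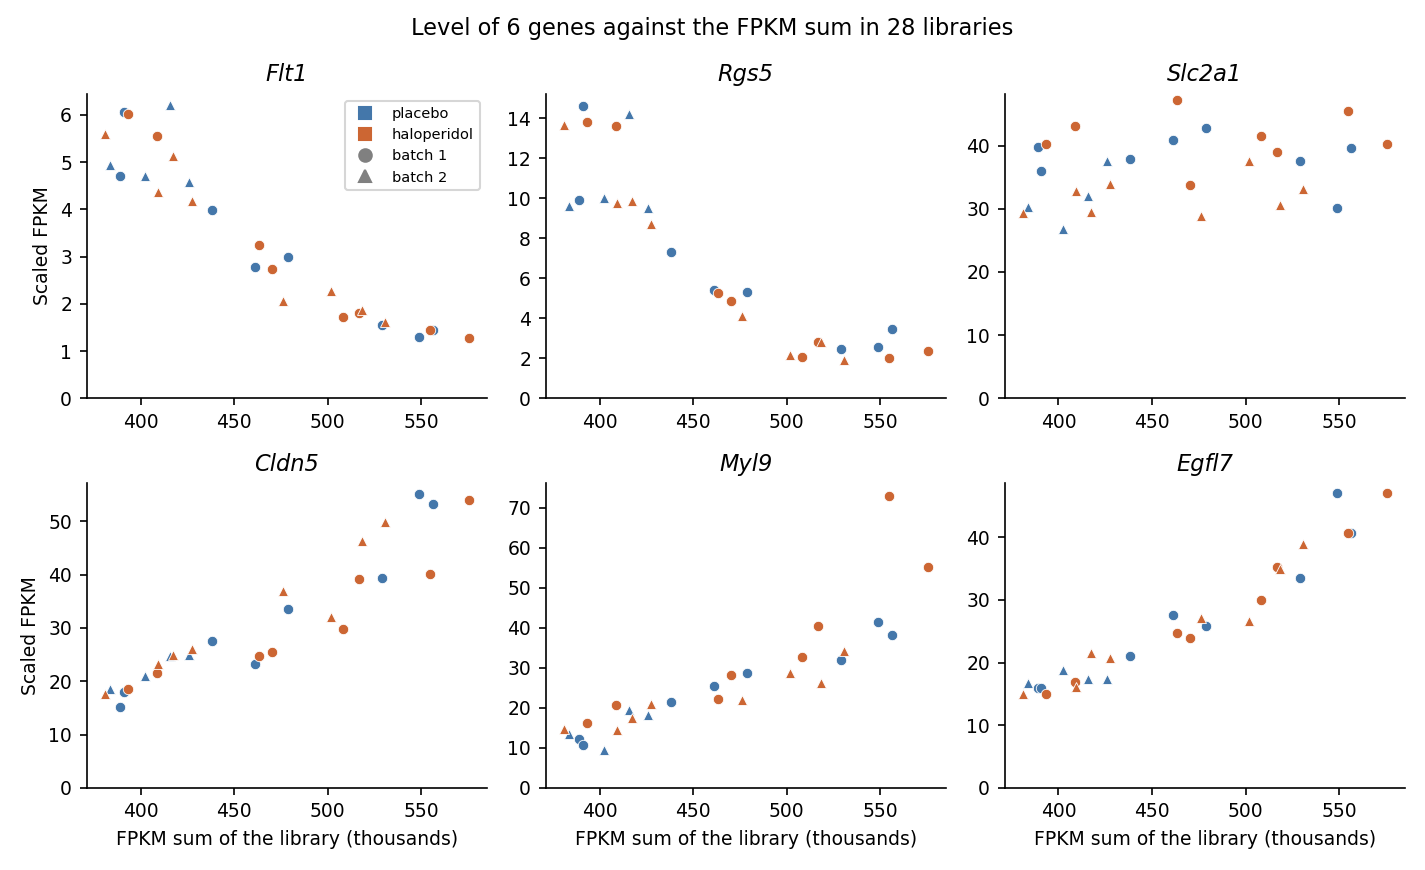
Scaled FPKM of 6 genes against the sum of all FPKM of the library, which runs from 380952 to 575171; each point is 1 of 28 libraries, coloured by treatment and shaped by batch. Flt1 and Rgs5 fall and Cldn5, Myl9 and Egfl7 rise along the sum in both treatments, while Slc2a1 (slope 0.01) has no called slope and sits lower in batch 2.

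Some pairs of genes of the same cell type moved in opposite directions from library to library, and others moved together. Cldn5 and Ocln, partners in the tight junction, had r = -0.85 and rho = -0.84 over 28 libraries (permutation p = 1e-05 and 2e-05; 3e-05 and 5e-05 after adjustment over 8 pairs). The relation was r = -0.90 in batch 1 and -0.80 in batch 2. It was -0.82 without the 2 libraries farthest from the median of Cldn5. Once treatment, batch and log2 of the FPKM sum were removed from both genes, called removal below, it was -0.16. With treatment and batch alone removed it was -0.87. The VEGF receptors Flt1 and Kdr had r = 0.97 and rho = 0.97 (permutation p = 1e-05 each, the smallest that the resamples can give, and 3e-05 and 4e-05 after adjustment). They had r = 0.97 in batch 1, 0.96 in batch 2, 0.97 without the 2 farthest libraries and 0.76 after removal. The angiopoietin receptor Tek and its relative Tie1 had r = -0.45 and rho = -0.38 (permutation p = 0.0156 and 0.0468; 0.0178 and 0.0625 after adjustment), with r = -0.43 in batch 1, -0.38 in batch 2, -0.29 without the 2 farthest libraries and 0.20 after removal.

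The smooth muscle pair Acta2 and Tagln had r = 0.89 and rho = 0.90 (permutation p = 1e-05 each, and 3e-05 and 4e-05 after adjustment). They had r = 0.92 and 0.74 in the batches, 0.87 without the 2 farthest libraries and 0.57 after removal of treatment, batch and the FPKM sum. Cdh5 and Pecam1 had r = 0.71 and rho = 0.72 (permutation p = 3e-05 and 4e-05; 6e-05 and 8e-05 after adjustment), with 0.69 and 0.79 in the batches, 0.78 without the 2 farthest libraries and 0.22 after removal. The efflux pumps Abcb1a and Abcg2 had r = 0.60 and rho = 0.65 (permutation p = 0.00062 and 0.00027; 0.000992 and 0.000432 after adjustment), with 0.53 and 0.67 in the batches, 0.60 without the 2 farthest libraries and -0.02 after removal. The pericyte genes Pdgfrb and Rgs5 had r = 0.46 and rho = 0.36 (permutation p = 0.0122 and 0.0617; 0.0162 and 0.0705 after adjustment), with 0.35 and 0.55 in the batches, 0.36 without the 2 farthest libraries and 0.49 after removal. The heavy and light chain genes Slc3a2 and Slc7a5 had r = -0.31 and rho = -0.25 (permutation p = 0.109 and 0.2, before as after adjustment), with -0.34 and -0.35 in the batches, -0.19 without the 2 farthest libraries and 0.25 after removal. The pairs Flt1 and Kdr, Acta2 and Tagln, and Pdgfrb and Rgs5 had values of 0.49 or more after removal, and the other 5 did not.

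Over all 780 pairs of the 40 genes, after treatment and batch were removed, 27.2% had r above 0.5 and 22.1% had r below -0.5, close to the 26.1% and 26.1% among all genes. After log2 of the FPKM sum was removed too, 5.90% of pairs were above 0.5 and 0.641% below -0.5, against 2.68% and 1.99% among all genes, and the median r was 0.13 against 0.0024. These are descriptions across genes that share the same libraries.

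The slopes differed by transcript length. Of the 15 genes with a main transcript under 2000 bases, 12 had a called positive slope and 1 a negative one, Rgs5. Of the 17 between 2000 and 4000 bases 6 were positive and 8 negative, and of the 8 over 4000 bases 0 were positive and 5 negative. Across the 40 genes Spearman's rho of slope with length was -0.68, and across all 12760 genes -0.66, as a description since all slopes come from the same libraries. Rgs5, with a transcript of 1809 bases and the steepest fall, and Vwf, with the longest transcript at 8834 bases and a slope of 0.11, lay away from this relation. The batch log2 fold changes of the 40 genes had a Spearman's rho of -0.85 with these slopes, and those of all genes -0.89, again as a description. The slopes on RIN ran the opposite way (Spearman's rho of -0.99 with the slopes on the FPKM sum over the 40 genes), with RIN between 7.08 and 8.97. The parts of RNA quality, depth and tissue make-up in these slopes cannot be told apart here.

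**Figure D5:**
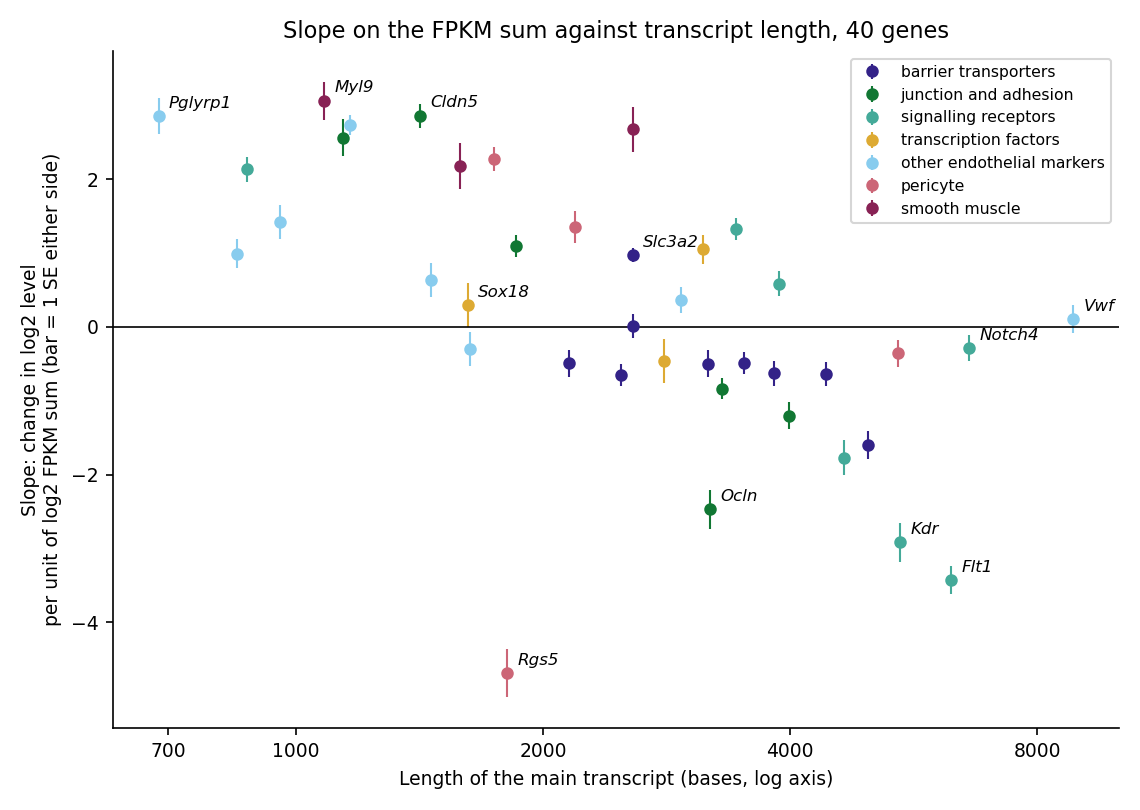
Slope of each of the 40 genes on log2 of the FPKM sum (change in log2 level per unit, bar 1 SE either side) against the length of its main transcript in bases (log axis), coloured by role group. The median slope is 2.13 for main transcripts under 2000 bases and -1.12 for those over 4000. Pglyrp1, Myl9 and Cldn5, near 3, and Flt1 and Kdr, near -3, are among the steepest, and Rgs5 and Vwf lie apart.

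For 9 of the 40 genes more than 1 transcript is listed, and 18 of their transcripts could be tested for their share of the gene. Limma called 0 of the 18 for haloperidol and 0 for batch, as among all 5680 transcripts tested (0% in both). At an unadjusted p under 0.05 there was 1 of 18 for haloperidol, against 5.07% of all, and 4 of 18 for batch, against 19.7% of all. The 1 was an Egfl7 form, NM_198725, which made up 9.55% of the gene on average (log2 difference -0.64, limma adjusted p = 0.797). Slc3a2 was made mostly of NM_008577, with a share of 65.1% to 94.7% (mean 78.3%). Its other form mirrors it, with batch log2 differences of -0.58 and 0.58, and both are among the 4 for batch. Pecam1 and Pdgfrb have mirrored forms too, so the 18 are not separate tests. The forms of Pecam1, Eng, Pdgfrb and, for its main form, Emcn took near 0% to near 100% from library to library, so these shares are uncertain. Whether the quantification failed to separate the forms was not tested.

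Of the other genes of the same pathways, from lists apart from the 40, limma called 0 in either comparison. Of 24 tested genes of vascular signalling (ligands such as Vegfa and Angpt1, and Notch and TGF-beta partners) the median haloperidol log2 fold change was 0.02, of 11 junction and caveola genes -0.02, of 12 further barrier transport genes -0.05, of 16 further endothelial genes -0.0040 and of 5 vascular basement membrane genes -0.02. For the 10 further mural genes the median was 0.17 (8 of 10 above 0), and 0.0042 with log2 of the FPKM sum as a term. Between batches these medians were 0.05, 0.07, 0.14, -0.09, 0.04 and, for the mural genes, -0.26.

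Markers of cells that lie next to or inside vessels were read in the same fits, and 0 were called for haloperidol or batch. Choroid plexus genes had a median haloperidol log2 fold change of 0.30, with all 12 above 0. The median was 0.0061 in batch 1 (6 of 12 above 0) and 0.72 in batch 2 (12 of 12), and limma called 0 of the 12 by the treatment-by-batch term. They had a summed level from 154 to 9617 scaled FPKM in haloperidol and from 64.6 to 8118 in placebo libraries. The 8 ependymal genes had 0.34 (0.05 in batch 1 and 0.90 in batch 2, with 0 called by the treatment-by-batch term), the 10 meningeal fibroblast genes 0.10, the 6 blood genes -0.12, the 10 astrocyte genes -0.02 and the 9 microglia genes 0.09. Of the perivascular macrophage list only 2 of 7 genes reached the minimum level. With log2 of Ttr as a term limma again called 0 of the 40 genes for haloperidol.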

How the data were processed

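RNA from striatum was sequenced from 28 mice with a strand-specific Illumina TruSeq RNA v2 preparation, per the labels. The authors aligned reads with TopHat2 2.0.6 to mm9 and quantified RefSeq transcripts with Cufflinks, per the submitters' processing notes, which name no Cufflinks version. The deposited values are FPKM per transcript, normalized for length and depth by the authors, per the file contents. Read counts are not used here, absolute depth is unknown, and depth relative to the other libraries ran from 0.433 to 1.73.

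Transcript FPKM were summed per symbol (30563 transcripts, 23309 symbols). The 12760 genes whose FPKM averaged 1 or more entered limma 3.58.1 in R 4.3.3 (lmFit, eBayes with trend) on log2(scaled FPKM + 0.5), with median-of-ratios scaling and treatment and batch as terms, 2-sided, with Benjamini-Hochberg adjustment at 0.05 over all genes. Fold changes are on that scale, which understates changes of low genes. Named genes are those past the threshold and the 2 smallest p-values of each role group in each comparison, with the rest given by value or range. The genes, role groups and lists were chosen with earlier results of these data known, and the slope on the FPKM sum, the gene pairs and the promoter motifs were added after seeing the data. Permutation tests used 100000 resamples, or were exact within batches, in SciPy 1.17.1 (NumPy 2.4.6, Python 3.11.15). Promoters came from the RefSeq table of GRCm38.p6 and were matched by symbol; no mm9 coordinate was read in it. The fits were tested on simulated data. Each library is a separate mouse.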

Additional observations from a re-analysis of the deposited data

How the results depend on the processing

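Of the 40 genes 0 were called for haloperidol, and 0 by the treatment-by-batch term, under all alternatives run: pseudocounts of 0.1 and 1, no filter or a minimum of 5, no scaling, a common FPKM sum, quantile normalization, RIN, log2 FPKM sum or log2 Ttr as a term, array weights, robust empirical Bayes, the highest transcript, no libraries of RIN under 7.5 (6 libraries), single batches or no batch term where these apply, and leaving out each library. The 5 batch calls became 3 with a common FPKM sum (Ly6c1, Pglyrp1 and Ramp2, so 2 of the 5). This setting also moves the median batch difference of all genes from -0.0026 to 0.15. Without scaling or with the highest transcript 4 of the 5 were called, and with quantile normalization 4 of the 5 and Ramp2. A minimum of 5 left Hspa12b and Notch4 untested, and the other 3 of the 5 and Ramp2 were called. Others of the 40 with a mean under 5 were not tested there in any comparison. The calls were 1 with RIN, 25 with array weights and 2 without libraries of RIN under 7.5. They were 0 in haloperidol or placebo mice alone, where fewer samples were tested, and ran from 4 to 10 when 1 library was left out. The 52 batch calls over all genes became 32 without scaling, 15 with a common sum, 6 with RIN, 119 with log2 FPKM sum, 6599 with array weights, 10 without low RIN, 1 in haloperidol and 0 in placebo mice, and 17 to 201 with 1 library left out (17 without placebo replicate 32, 201 without haloperidol replicate 17). The 1 haloperidol call over all genes became 0 with a common sum, without the batch term and in either batch alone, 5 with RIN, 7 with log2 FPKM sum, 7 with array weights, 4 without low RIN, and 0 (without placebo replicate 22) to 4 (without placebo replicate 12) with 1 left out. With log2 FPKM sum the sign of the haloperidol log2 fold change turned in 11 of the 40 genes, with RIN in 1 and with log2 Ttr in 2, and that of the batch difference in 14, 18 and 1. Of the genes refitted singly under each setting (14 for haloperidol, 15 for batch), the haloperidol sign turned for Pdgfrb (-0.016 with a common sum, -0.20 with the highest transcript), Pglyrp1 (-0.0094 with log2 FPKM sum), Pecam1 (0.076 with the highest transcript), Sox18 (0.011 without low RIN) and Sox17 (-0.017 in batch 1), and the batch sign for Rgs5 (-0.39 with RIN, -0.13 with log2 FPKM sum), with no call. The cause of these changes was not tested. In batch 1 slopes on the FPKM sum were called for 33 of the 40 genes, against 9829 of all 12760. In batch 2 there were 23, against 8250 of all, and without low RIN 30, against 9997. Of the 32 called in the main fit, 32, 31 and 32 kept their sign. No paired analysis was possible because mouse numbers are not shared between the groups. Genes at levels near 1, such as Kdr and Notch4, had Cufflinks intervals of 26.9% and 21.5% of the FPKM either side (median), which limits what differences can be seen.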
